A study of Rattus rattus with 8 samples.

Results

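The 4n fraction is the set of cells read as tetraploid by DNA content in a sort of neonatal rat heart cell cultures, and it is represented by 4 of the 8 libraries of the series, taken by their titles. The cultures were of neonatal rat cardiomyocytes (NRCM) from pups of strain SD, 1 to 3 days old, kept for 24 h after a differential adherence step with 0.2 mM AraC, a nucleoside that blocks DNA synthesis. They were then starved of serum and kept at 1% oxygen for 48 h, and every library of both groups comes from such hypoxic cultures, so no normoxic sample stands beside them. Cells were stained with the DNA dye Hoechst at 2 µg/mL and sorted into a diploid (2n) and a tetraploid (4n) subpopulation, and the 4 replicates per group are described as independent experiments. A 4n signal can come from a cell with a tetraploid nucleus, a cell with a pair of diploid nuclei, a cell in the G2 or M phase, or diploid cells that passed the sorter together, and the labels do not separate these. The 2n libraries serve below as values set beside those of 4n, in 4 tests of balances within muscle RNA and in 1 untested comparison of spread.

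The newborn rat heart is in the period when its cardiomyocytes stop dividing, and many complete a last DNA synthesis without separating, which leaves binucleated or polyploid muscle cells. Cultures of such hearts also hold fibroblasts, smooth muscle cells, pericytes, endothelial cells and other stroma, and these are often still able to divide. Heart muscle RNA is rich in sarcomere and mitochondrial transcripts, whereas fibroblast RNA is rich in collagens and other matrix transcripts. Atrial and ventricular muscle use different myosin light chains: Myl7 and Myl4 are the atrial forms, and Myl2 and Myl3 the ventricular ones. Nppa, the gene of atrial natriuretic peptide, is an atrial gene in the adult heart and is also active in fetal and stressed ventricles.

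Total gene counts of the 4n libraries lay between 15326219 and 16885512, and counts of nuclear genes between 11629713 and 16106284. Genes of the mitochondrial chromosome (MT) took 3.71% of the counts in replicate 1 and 25.0%, 25.9% and 24.1% in replicates 2, 3 and 4, against 2.87% to 3.82% in the 2n libraries. Replicate 1 therefore stands apart from the other 3 libraries of its group. Replicate 2 stands apart by low glycolysis and mitosis genes, replicate 3 by high muscle genes and replicate 4 by high endothelial and inflammatory genes, as described with those lists. The deposited FPKM (fragments scaled for gene length and library total) is relative to a total that includes MT genes, and that total was 1.04, 1.33, 1.35 and 1.32 times the nuclear count in replicates 1 to 4. A nuclear gene at the same share of nuclear RNA is thus listed lower in replicates 2, 3 and 4 than in replicate 1. For this reason levels are compared between genes by FPKM, and between libraries by the share of nuclear FPKM or by CPM, here counts scaled to a common nuclear total after TMM normalisation.

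Ranked by mean FPKM with MT genes included, the 10 highest genes of the 4n fraction were all on MT, as were 13 of the highest 15 and 14 of the highest 50. Mt-co1, a subunit of cytochrome c oxidase (Rnor_6.0 chromosome MT, 5323 to 6867), led with 9270.1, 61470.2, 60550.1 and 60506 FPKM in replicates 1 to 4. Mt-cox3, a further subunit of that enzyme, followed with 6544, 45138, 42069.7 and 44382 FPKM. In both genes replicate 1 lay far below the other libraries, which were close to each other. Mt-co2, Mt-atp8, Mt-cytb, Mt-nd2, Mt-nd1 and Mt-nd4l came next, with means between 10307 and 24909 FPKM. All 34 MT genes with a mean above 1 FPKM were lowest in replicate 1. The ranking with MT genes is therefore mainly the ranking of 3 libraries, and the mean of 4 describes none of them. The first nuclear genes in it were Col1a1 at rank 13 and Nppa at rank 15.

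With MT genes left out, the leading gene by mean FPKM was Col1a1, the alpha 1 chain of type I collagen (Rnor_6.0 chromosome 10, 82745801 to 82762789), at 3721 ± 1602 FPKM (SD, n = 4). Its values were 5778, 4197, 2312 and 2598 FPKM in replicates 1 to 4. Nppa (Rnor_6.0 chromosome 5, 164808323 to 164809705) came second at 3064 ± 2413 FPKM, from 788, 1576, 6169 and 3723. Actc1, cardiac alpha actin (Rnor_6.0 chromosome 3, 105507403 to 105512939), came at nuclear rank 5 with 2362 ± 1907 FPKM, from 911, 1279, 5115 and 2142. The collagen and the muscle genes thus had opposite highs: Col1a1 was highest in replicate 1, and Nppa and Actc1 in replicate 3. Col1a1 was the first nuclear gene in replicates 1 and 2, and Nppa was first in replicates 3 and 4, whereas Col1a1 was first in each of the 2n libraries. Nppa held nuclear ranks 75, 11, 1 and 1, Actc1 held 59, 16, 2 and 7, and Tnnt2, cardiac troponin T, held 142, 43, 3 and 19 in replicates 1 to 4.

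**Figure D1:**
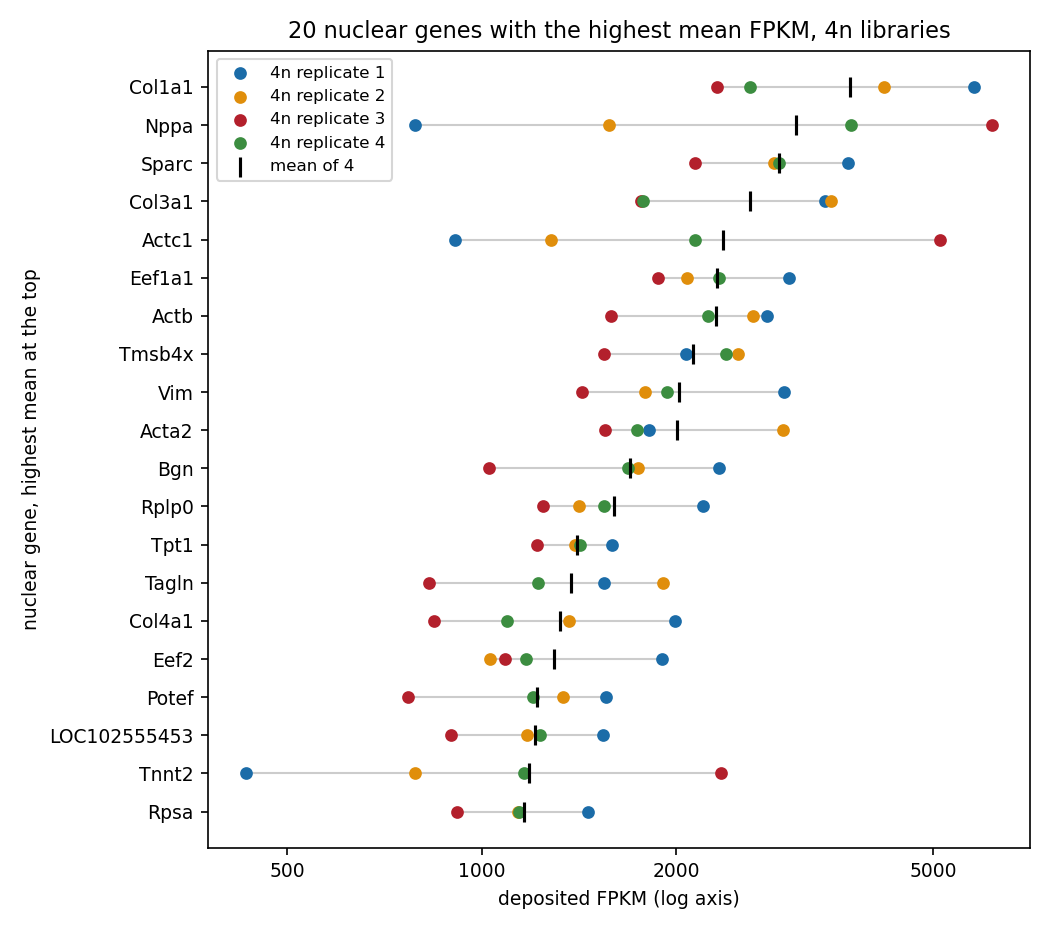
Deposited FPKM (log axis) of the 20 nuclear genes with the highest mean in the 4n libraries, with 1 point per library and a black tick for the mean of 4. Nppa, Actc1 and Tnnt2 spread most widely, with replicate 3 at their high end and replicate 1 at their low end. The other 17 genes, Eef2 excepted, have replicate 3 at their low end. The FPKM scale lowers nuclear genes in replicates 2, 3 and 4, and by CPM Acta2 is lowest in replicate 1 and Col3a1 in replicate 4.

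The remaining leaders were stromal, cytoskeletal and translation genes. Sparc, a matrix-binding glycoprotein, had 3689.5, 2835, 2139.9 and 2889.8 FPKM, and Col3a1, the type III collagen chain, had 3394, 3473, 1764 and 1776. Acta2, the actin of smooth muscle and of activated fibroblasts, had 1813, 2929.5, 1553 and 1742 FPKM. Tagln, transgelin of the same cells, had 1545, 1906, 830.2 and 1221. Acta2 and Tagln were highest in replicate 2, as was Col3a1, with 17226, 22121, 11349.5 and 10932 CPM in replicates 1 to 4. Of the 20 leaders, 5 were in the matrix list, 3 in the cardiomyocyte list, 2 in the smooth muscle and pericyte list, and 3 were described as cytosolic ribosomal proteins or as resembling one. Of the 100 leaders, 39 were of that ribosomal kind, 12 were matrix genes and 7 were in any of the 5 heart muscle lists. The 10 leading nuclear genes of each library took 7.23%, 7.74%, 7.50% and 6.58% of its nuclear FPKM, so no library was dominated by a few nuclear genes. Potef, at rank 17 of the nuclear genes, is an actin-related gene, and its reads and those of Actb may have been split by the counting.

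The 4 defining markers of the labelled cell type were present in every 4n library. Actc1 and Nppa are given above. Tnnc1, cardiac troponin C, had 172, 369, 1126 and 532 FPKM and Myh6, alpha myosin heavy chain, had 127, 211, 725 and 221. All 4 markers were lowest in replicate 1 and highest in replicate 3. The 11 cardiomyocyte markers measured (Ttn was not analysed here) together took 0.693, 1.45, 5.12 and 2.42% of nuclear FPKM in 4n replicates 1 to 4, and 0.162, 0.0962, 0.134 and 0.170% in the 2n libraries. The largest 4n share was 7.38 times the smallest, against 1.77 times among the 2n libraries. The mean share in 4n was 2.42% ± 1.93 (SD, n = 4), and without replicate 3 it was 1.52%. In such bulk samples, fewer cells of a type and less RNA per cell of that type cannot be told apart.

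Fibroblast markers were the larger list in 3 of the 4 libraries. The 12 fibroblast genes took 3.83, 3.72, 2.18 and 2.62% of nuclear FPKM in 4n replicates 1 to 4, and Col1a2 among them was listed at 0 in every library. A gene listed at 0 here may have had reads that the counting did not assign, which was not tested. This list was above the cardiomyocyte list in replicates 1, 2 and 4 and below it in replicate 3. The 8 smooth muscle and pericyte markers took 0.898, 1.55, 0.753 and 0.918%, highest in replicate 2. Within that list Myh11, smooth muscle myosin, had 14.8, 28.5, 9.94 and 24.5 FPKM and Pdgfrb, a receptor on pericytes and fibroblasts, had 170.3, 145, 81.2 and 112. The labelled cardiomyocyte identity therefore held for part of the RNA, and stromal markers were high in each library. Which share of cells this represents was not tested.

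Markers of other heart cells were low. The 8 endothelial markers found took 0.00560, 0.00610, 0.00549 and 0.0274% of nuclear FPKM, the 8 epicardial and mesothelial markers 0.0130, 0.00619, 0.00698 and 0.0132%, and the 4 glial markers 0.000465, 0.000336, 0.000470 and 0.00147%. The 9 macrophage markers took 0.00299, 0.00205, 0.000619 and 0.00202%, and Ptprc, the pan-leukocyte marker CD45, had 0 to 16 counts per library. Hbb and Alas2, the erythroid genes found, were listed at 0 in all 4 libraries. Endothelial and glial lists were highest in replicate 4, and the macrophage list was lowest in replicate 3. Lyz2, lysozyme of macrophages, had 79, 51, 4 and 53 counts in replicates 1 to 4. Upk3b, a mesothelial uroplakin, had 6.24, 1.72, 2.64 and 4.38 CPM and Wt1, an epicardial transcription factor, had 54.2, 26.3, 20.5 and 25.7.

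**Figure D2:**
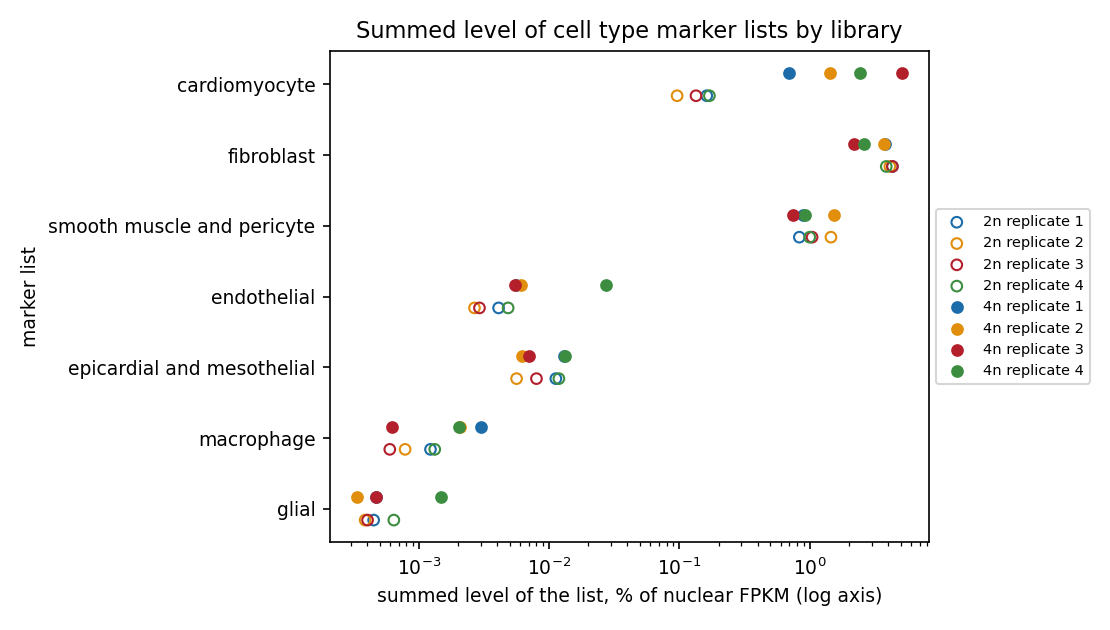
Summed level of 7 cell type marker lists as a percent of nuclear FPKM (log axis), with filled points for the 4n and open points for the 2n libraries, coloured by replicate number. The cardiomyocyte list lies between 0.693% and 5.12% in 4n and between 0.0962% and 0.170% in 2n, and the endothelial list is highest in 4n replicate 4 at 0.0274%.

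Ventricular and atrial muscle genes were both present, and the ventricular myosin light chains were far more abundant than the atrial ones. Among the 12 atrial genes, 8 had a mean above 1 FPKM and 3 a mean above 10, whereas all 8 ventricular genes were above 1 and 5 of them above 10. Summed FPKM was nevertheless higher for the atrial list in each library, and Nppa made up nearly all of it. The atrial sums were 820.4, 1624, 6281 and 3813 FPKM and the ventricular sums 709.9, 1048, 3654 and 1500.3 in replicates 1 to 4. Which list was higher therefore turned on this gene, which is not restricted to atria in newborn or stressed hearts.

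Of the ventricular genes, Myl3, the essential light chain of ventricular and slow muscle, had 255, 408, 1451 and 601 FPKM in replicates 1 to 4. Myl2, the ventricular regulatory light chain, had 62.1, 104, 514 and 173, and Myh7, beta myosin heavy chain, had 224, 282, 1069 and 380.1. Pln, phospholamban, which restrains the calcium pump and is higher in ventricles, had 60.8, 101, 455 and 196. All 4 genes were lowest in replicate 1 and highest in replicate 3, as Actc1 was. Irx4, a ventricular transcription factor, had 0.885, 2.71, 9.76 and 5.08 FPKM and Hey2, a Notch effector of the ventricular wall, had 3.44, 5.56, 5.74 and 8.35. Kcnj2, a potassium channel of the resting potential, had 0.570, 0.421, 2.43 and 2.14, and Fhl2, a LIM protein, had 103, 144, 147 and 135. Hey2 was highest in replicate 4, and Fhl2 had an SD of log2 CPM of 0.40, against 1.38 for Pln.

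Of the atrial genes other than Nppa, Myl4, the atrial essential light chain, had 13.5, 24.0, 81.3 and 38.8 FPKM, and Myl7, the atrial regulatory light chain, had 2.08, 3.04, 6.44 and 10.034. Myl4 followed the order of Actc1, whereas Myl7 was highest in replicate 4. Sln, sarcolipin, the atrial regulator of the calcium pump, had 0.201, 1.73, 7.35 and 14.7 FPKM, which rest on 1, 8, 37 and 67 counts. Gja5, connexin 40, which atrial muscle shares with arterial endothelium, had 1.28, 2.88, 1.52 and 7.26 FPKM. Sln, Gja5 and Myl7 were all highest in replicate 4, the library in which the endothelial list was also highest, and the part of the latter in the Gja5 values was not tested. Nr2f2, an atrial factor that stromal and venous cells also express, had 12.5, 12.7, 7.76 and 14.2 FPKM and was lowest in replicate 3. Kcnj5, a subunit of the acetylcholine-gated channel, had 1.81, 1.86, 4.01 and 2.25 FPKM. Its partner Kcnj3 and the developmental gene Bmp10 stayed under 1 FPKM in each library, Tbx5 lay between 0.459 and 1.98, and Kcna5 was listed at 0.

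**Figure D3:**
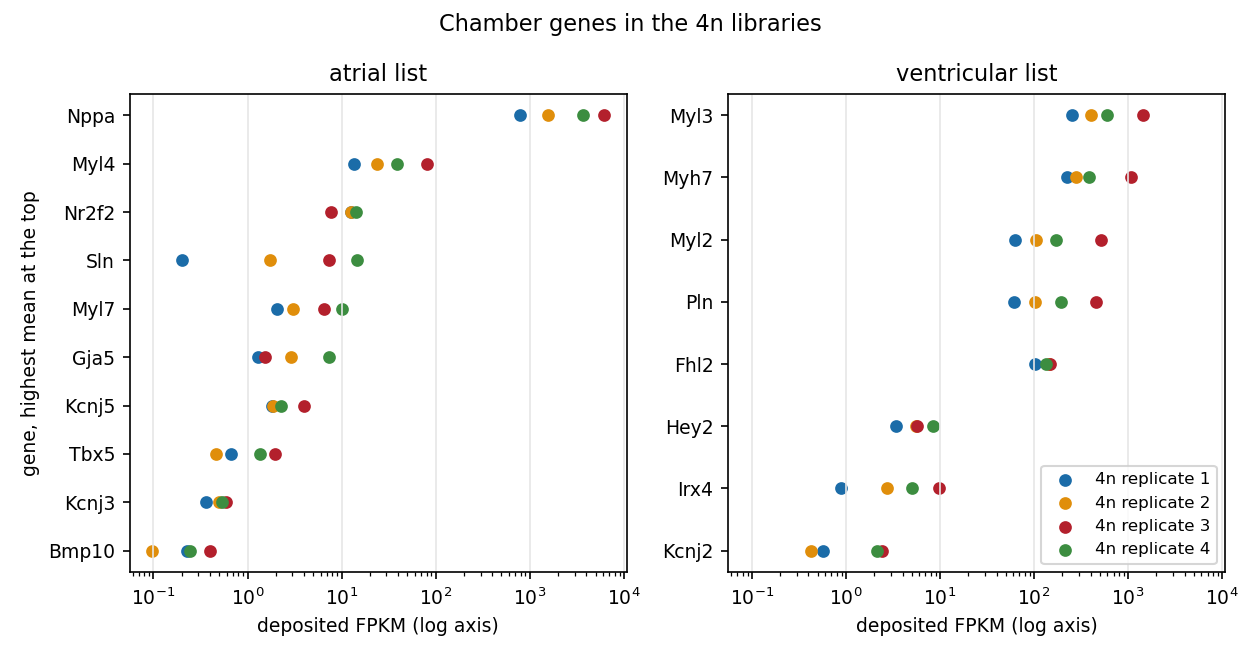
Deposited FPKM (log axis) of 10 atrial genes (left) and the 8 ventricular genes (right) in the 4n libraries, with 1 point per library. Replicate 3 is the highest point of Nppa, Myl4, Myl3, Myh7, Myl2 and Pln, and replicate 4 is the highest point of Myl7, Sln, Gja5 and Hey2. Kcna5, listed at 0, is not drawn.

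Ratios between muscle genes mostly varied less than their levels. Myl3 over Myl4 was 18.9, 17.0, 17.8 and 15.5 in replicates 1 to 4, while Myl2 over Myl7 was 29.9, 34.3, 79.9 and 17.2. The essential light chains thus kept nearly the same ventricular excess, and the regulatory light chains did not: Myl2 over Myl7 was highest in replicate 3 and lowest in replicate 4. As a percent of Actc1 FPKM, Myl3 stood at 28.0, 31.9, 28.4 and 28.1%, Tnnt2 at 47.4, 61.6, 45.9 and 54.4% and Myh7 at 24.6, 22.0, 20.9 and 17.7%. Nppa stood at 86.5, 123, 121 and 174%, and Mb, myoglobin, at 1.85, 1.45, 2.08 and 0.570%. The highest over the lowest of these percentages was 1.14 for Myl3, 2.01 for Nppa, 3.66 for Mb and 3.72 for Myl7. Relative to Actc1, Nppa was highest and Mb lowest in replicate 4. Actc1 and Acta1, and likewise Myh6 and Myh7, share long near-identical stretches, so the split of reads within these pairs is uncertain.

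Balances within muscle RNA were set against the 2n libraries. Each was tested, two-sided, with an exact permutation of the 8 libraries between groups, which cannot go below p = 0.0286. The 4 values tested were adjusted together by the Benjamini and Hochberg method, and none passed an adjusted p of 0.05. A single value at the smallest p adjusts to 0.114, so 1 value alone could not have passed. The permutation does not use the pairing of same-numbered libraries. An exact sign-flip permutation that does, over 4 pairs, cannot go below p = 0.125 and could not have passed either. The atrial share of the summed FPKM of Myl7, Myl4, Myl2 and Myl3 was 4.68, 5.02, 4.27 and 5.94% in 4n replicates 1 to 4 and 6.41, 12.2, 8.09 and 6.52% in the 2n libraries. The groups did not overlap, at 4.98% ± 0.708 against 8.31% ± 2.71 (SD, n = 4 each), but the adjusted p was 0.114 by the exact permutation test (p = 0.0286). With the pairs kept, the exact sign-flip permutation gave p = 0.125, its smallest value. The difference was -3.33 percentage points, and -2.03 without 2n replicate 2. With Myl7 and Myl2 alone the direction turned, at 0.36 percentage points higher in 4n. With all members of both chamber lists, Nppa included, it also turned, at 25.0 points higher in 4n. It kept its sign with all members but Nppa, at -4.75 points, and with Myl4 and Myl3 only, at -4.16 points. Both of these alternatives, and that of Myl7 and Myl2 alone, were added after the data were seen. The 2n values rest on few reads, with 7, 14, 8 and 26 counts for Myl7 and 52, 70, 64 and 74 for Myl4 in 2n replicates 1 to 4.

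The other balances lay close together. Tnni3, the adult cardiac troponin I, took 70.2, 68.3, 72.5 and 75.6% of the FPKM of Tnni1 and Tnni3, Tnni1 being the fetal cardiac and slow skeletal form. The 4n mean was 71.6% ± 3.13 and the 2n mean 72.8% ± 3.26 (SD, n = 4 each, exact permutation p = 0.600, adjusted p = 0.80). Myh6 took 36.1, 42.8, 40.4 and 36.8% of the FPKM of Myh6 and Myh7, with means of 39.0% ± 3.17 and 38.9% ± 2.99 (SD, n = 4 each, exact permutation p = 1.00, adjusted p = 1.00). The log2 ratio of Nppa to Actc1 was -0.21, 0.30, 0.27 and 0.80 in 4n and -0.27, -0.0046, 0.03 and 0.30 in 2n replicates 1 to 4. All 4 same-numbered pairs had the higher ratio in the 4n library, and the groups overlapped (exact permutation p = 0.257, adjusted p = 0.514). The exact sign-flip permutation of these pairs gave p = 0.125, its smallest value. The difference of 0.28 became 0.11 without 4n replicate 4, 0.44 without 4n replicate 1 and 0.18 without 2n replicate 1. With 4 libraries per group, these tests leave differences of a few percentage points undecided.

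**Figure D4:**
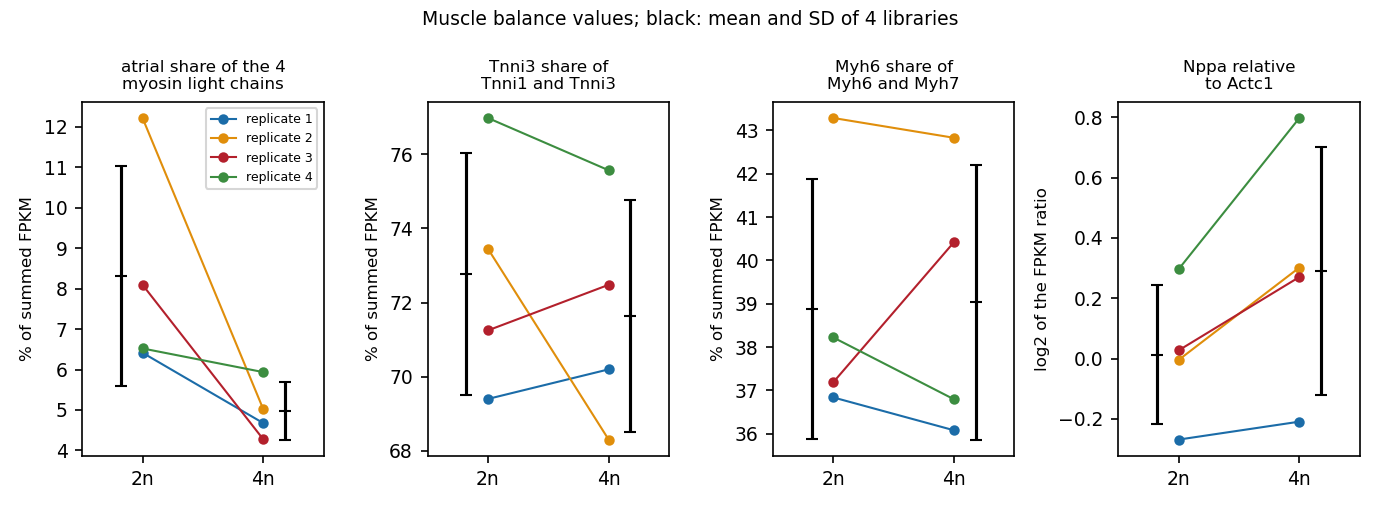
Muscle balance values in the 2n and 4n libraries, as percents of summed FPKM in 3 panels and as a log2 FPKM ratio in the fourth, with lines joining libraries of the same replicate number and black bars for mean and SD of 4. The atrial light-chain share is lower in 4n in each pair, from 8.31% to 4.98% in the mean, and the Tnni3 and Myh6 shares overlap between the groups. The vertical axes do not start at 0.

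The 4n libraries differed from each other over much of the transcriptome. Of 12057 nuclear genes with enough counts, 479 (3.97%) had an SD of log2 CPM above 1 over the 4 libraries, and the median SD was 0.29. Counting error alone gives a median of 0.08 on that scale. Over 11843 genes with enough counts in both groups, the median SD was 0.29 in 4n and 0.23 in 2n, and 64.1% of them had the larger SD in 4n. This difference was not tested. In a principal component analysis of the 4n libraries, replicates 1 to 4 lay at -40.4, -14.8, 44.4 and 10.8 on the first axis, which took 53.2% of the variance. The second took 28.6%, with replicate 2 at -24.6 and replicate 4 at 36.0 as its ends. Replicate 3 held the most genes over 2-fold above all other libraries, at 175 of 7247 genes with a mean of at least 20 CPM, against 52 in replicate 4, 21 in replicate 1 and 6 in replicate 2. Replicate 1 held the most genes over 2-fold below all others, at 86, followed by replicate 2 at 59, replicate 3 at 22 and replicate 4 at 1.

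Among genes with a mean of at least 20 CPM, the 15 with the largest SD fell into few patterns. Of these, 9 were highest in replicate 4: Reg3b, Lcn2, Cxcr4, Notch4, C3, Sparcl1, Cdh5, Car9 and Apln. Another 3 were highest in replicate 3, namely Sh3kbp1, Cd36 and Slc2a4, and Ndrg1, G0s2 and Car12 were highest in replicate 1. Notch4, an endothelial Notch receptor, had 45.8, 5.16, 7.04 and 70.8 CPM and Apln, the vascular peptide apelin, had 38.4, 6.02, 17.3 and 77.5. G0s2, an inhibitor of fat breakdown, had 128, 8.60, 38.8 and 62.9 CPM and Slc2a4, the insulin-responsive glucose transporter of muscle, had 5.73, 5.85, 51.3 and 25.9. Lowest values fell mostly in replicate 2, as in Notch4, Apln and G0s2, whereas the 3 genes highest in replicate 3 were lowest in replicate 1.

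Heart muscle genes varied together along 1 order of the libraries, in which replicate 1 was lowest, replicate 2 next, replicate 4 next and replicate 3 highest. Actc1 has this order, with 1444, 2545, 10281 and 4120.2 CPM, and so did 1341 of the 12057 genes, or 11.1%, the most frequent of the 24 possible orders. The exact reverse was the next most frequent, with 985 genes or 8.17%. All 11 tested cardiomyocyte markers, 20 of 22 sarcomere genes, 7 of 11 calcium handling genes and 8 of 12 genes of muscle energy supply shared it. Of 47 genes in these 4 lists, 37 did, and 7 orders of the 24 were seen among them. Actc1, which sets the order, is itself counted in the cardiomyocyte and sarcomere lists. Tnnc1, Myh6, Myh7, Tnnt2, Tnni3 and Actn2 are also in both lists, and the cardiomyocyte markers Ryr2 and Pln are in the calcium handling list. Likeness between these lists is therefore in part that of shared members. The lists were chosen with these libraries' earlier results known, so the counts are a description. Median log2 CPM relative to each gene's mean was -1.29, -0.42, 1.52 and 0.23 for the cardiomyocyte list and -1.29, -0.41, 1.53 and 0.14 for the sarcomere list in replicates 1 to 4, against medians within 0.02 of 0 over all tested genes. An SD above 1 was found for 11 of 11 cardiomyocyte and 19 of 22 sarcomere genes.

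Muscle genes outside the contractile apparatus took part. Casq2, calsequestrin, which stores calcium in the sarcoplasmic reticulum, had 142, 409, 1546 and 626 CPM, and Ryr2, the calcium release channel, had 60.9, 95.2, 317 and 114. Fabp3, the heart fatty acid binding protein, had 110.0, 201, 728 and 311 CPM. Casq2, Ryr2 and Fabp3 were each lowest in replicate 1 and highest in replicate 3. Atp2a2, the calcium pump, which other cells also express, kept the order with a narrower span of 626, 1105, 2336 and 1312 CPM. Exceptions included Asph, highest in replicate 1 at 146 CPM, and Jph2, junctophilin, whose SD was 0.35. Of 22 nuclear genes of the respiratory chain and ATP synthase, 21 followed the order of Actc1, with a median SD of 0.66 and medians of -0.71, -0.18, 0.85 and 0.03. Atp5b, the beta subunit of ATP synthase, had 1189.6, 1463, 2998 and 1834 CPM and Cox4i1, a cytochrome c oxidase subunit, had 252, 307, 484 and 339. Nuclear respiratory genes thus ran with muscle genes over a smaller range. The MT genes as a sum were low in replicate 1 alone and at nearly the same share in the other 3. Single MT genes differed in this: Mt-co1 had 126962, 126287 and 120773 CPM in replicates 2, 3 and 4, whereas Mt-nd1 had 15789, 23421 and 14606.

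Genes of the stretch and fetal programme followed the same order in 13 of 15 cases. Among the 15, Nppa, Acta1, Myh7 and Csrp3 are also in the cardiomyocyte or sarcomere lists. Nppb, brain natriuretic peptide, had 128, 252, 786 and 528 CPM, Ankrd1, a stretch-sensing nuclear and sarcomere protein, had 856, 1376, 3882 and 2078, and Des, desmin, had 407, 601, 1827 and 1107. The 2 exceptions were Ctgf and Cyr61, matricellular targets of YAP that stromal cells also express, with 2497, 2972, 1927 and 2851 CPM for Ctgf and 1315, 713, 685 and 894 for Cyr61. Ctgf and Cyr61 were lowest in replicate 3, where the other 13 were highest.

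The profiles nearest to Actc1 were found by the root mean square difference of log2 CPM values centred on each gene's mean, among genes with a mean of at least 20 CPM. The nearest was Perp, a desmosomal protein, at a distance of 0.03 and 12.4, 22.9, 87.8 and 35.6 CPM. Tmem38a, a cation channel of the sarcoplasmic reticulum, lay at 0.06, Fabp3 at 0.06, Mybpc3, cardiac myosin binding protein C, at 0.07, and Myl3 at 0.08. Mgat4a, Ldhb, Pygm, Cap2 and Alpk3 completed the 10 nearest, the last of them at 0.10. Of the 7247 genes searched, 62 lay within 0.20 of Actc1, and 15 of these were in the heart muscle lists. Those lists are short, at 47 tested genes over 4 of them and 15 in the stretch and fetal list. A gene outside the lists need not be outside muscle. The largest excess of replicate 3 over the next library was in Mb, by 2.53 on the log2 scale, from 17.0, 23.5, 136 and 14.9 CPM. Ldb3, a Z-disc protein, followed at 2.39, then Txlnb, Nrap, Srl and Ckm at 2.04, 2.03, 2.02 and 1.93. In replicate 3, 29.9% of all tested genes were highest, against 21 of 22 sarcomere genes and 12 of 12 genes of muscle energy supply.

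Genes most in deficit in replicate 3 included Prss35, a secreted protease-like protein, with 92.8, 111, 20.1 and 77.3 CPM, and Has2, the main hyaluronan synthase, with 46.7, 57.9, 13.9 and 80.0. In replicate 4 the largest deficit was in Sema3d, a secreted semaphorin, with 36.7, 34.1, 40.1 and 11.5 CPM.

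Matrix and fibroblast genes ran the other way, over a smaller range. Among 24 tested matrix genes, 19 were lowest in replicate 3, against 27.3% of all tested genes. Of the 24, 15 were highest in replicate 1, against 29.7% of all tested genes, and none had the order of Actc1 or an SD above 1. Matrix medians were 0.41, 0.20, -0.49 and -0.14 and fibroblast medians 0.22, 0.18, -0.47 and -0.12 in replicates 1 to 4. The pattern was not particular to these lists. Of 69 tested ribosomal protein genes, 52 were lowest in replicate 3 and 39 highest in replicate 1, with smaller medians of 0.12, 0.04, -0.18 and 0.03. The 8 smooth muscle and pericyte genes were less uniform, with 4 lowest in replicate 3 and 5 highest in replicate 2. Col6a3, a type VI collagen chain, had 3737, 2813, 1308 and 1114 CPM and Tnc, tenascin C, had 1515, 1672, 496 and 738, with an SD of 0.84 each. Loxl2, a collagen cross-linking enzyme, was highest in replicate 1 at 1133 CPM and between 491 and 602 in the others. Mmp2, a matrix protease, was highest in replicate 4 at 1912 CPM. Within a library's counts, a higher muscle share leaves a lower share for other genes. The CPM values are scaled by TMM factors of 0.977, 0.998, 1.00 and 1.02 in replicates 1 to 4, so they do not sum to a fixed total. How far the muscle share still enters the matrix values was not tested.

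The genes closest to the mirror image of Actc1 were less close than its nearest neighbours. Dixdc1, a Wnt pathway protein, had 52.7, 21.1, 5.28 and 13.1 CPM and lay at a distance of 0.21 from the mirror image. S1pr3, a sphingosine phosphate receptor, had 199, 181, 46.8 and 113 CPM and Kif21b, a kinesin, had 162, 76.4, 33.8 and 39.0. These 3 were lowest in replicate 3, and none belongs to the matrix or fibroblast lists. Cadm4, Lsp1, Ptprn, Zfhx3, Akr1b8, Egr3 and Dchs1 made up the rest of the 10 closest, at distances from 0.32 to 0.43.

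**Figure D5:**
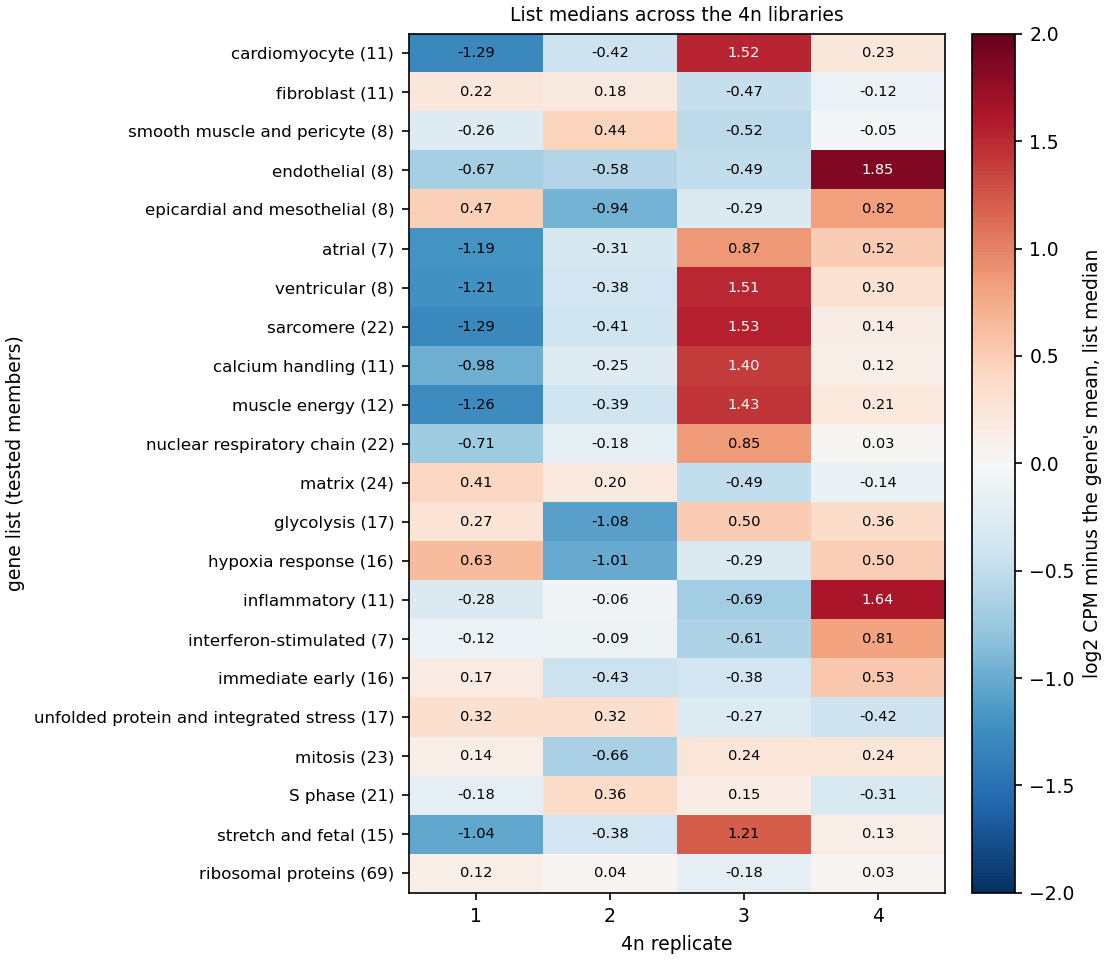
Median over the tested members of each gene list of log2 CPM minus the gene's own mean (colour and number), with 1 column per 4n replicate and the number of members in brackets. The cardiomyocyte and sarcomere lists run from -1.29 in replicate 1 to 1.52 and 1.53 in replicate 3, glycolysis, hypoxia response and mitosis are low in replicate 2, and endothelial and inflammatory lists are high in replicate 4.

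Replicate 2 was set apart by low glycolysis, hypoxia response and mitosis genes. Over all tested genes 21.4% were lowest in replicate 2. All 17 glycolysis genes were, and their medians were 0.27, -1.08, 0.50 and 0.36 in replicates 1 to 4. Pfkl, the liver form of phosphofructokinase, had 465, 85.7, 413 and 445 CPM, Ldha, lactate dehydrogenase A, had 1391, 632, 2259 and 1829, and Slc16a3, the lactate exporter, had 284, 42.9, 349 and 308. In Pfkl and Slc16a3 the other 3 libraries lay close together and replicate 2 far below, whereas Ldha also varied among the other 3. The glycolysis list took 1.73, 0.713, 1.91 and 1.79% of nuclear FPKM in 4n and 1.70, 0.590, 1.497 and 1.497% in 2n, so the 2n library of the same number was low too.

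Of 16 hypoxia response genes tested, 13 were lowest in replicate 2. The hypoxia response list took 0.561, 0.196, 0.294 and 0.401% of nuclear FPKM in 4n replicates 1 to 4. It took 0.666, 0.211, 0.396 and 0.485% in 2n, so the 2n library of the same number was low here too. Bnip3, a mitophagy receptor induced by low oxygen, had 255, 35.3, 282 and 321 CPM and Pdk1, pyruvate dehydrogenase kinase, had 97.5, 20.2, 122 and 108. Vegfa, the angiogenic growth factor, had 1405, 338, 528 and 774 CPM. Vegfa and Ndrg1, with 214, 13.4, 49.9 and 159 CPM, were highest in replicate 1, whereas Egln3, a HIF hydroxylase, was highest in replicate 3 at 396 CPM. Hypoxia response genes thus shared the low of replicate 2 without sharing 1 order above it. Of the 3 exceptions, Adm and Plod2 were lowest in replicate 3, as was Nos3, an endothelial gene that was highest in replicate 4. The largest gaps below the other libraries in replicate 2 were in Car12 at 2.94, Bnip3 at 2.85 and Slc16a3 at 2.72 on the log2 scale.

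All 23 tested mitosis genes were lowest in replicate 2 as well. Their list took 0.124, 0.0717, 0.124 and 0.124% of nuclear FPKM in 4n replicates 1 to 4, so that the other 3 libraries were nearly equal, and 0.0931, 0.0880, 0.0772 and 0.0709% in the 2n libraries. Unlike the glycolysis list, it was not low in 2n replicate 2. Cenpf, a kinetochore protein, had 171, 58.1, 129.6 and 139 CPM, Kif20a, a kinesin of the dividing cell's midzone, had 112, 50.8, 120.2 and 123, and Plk1, the polo-like kinase, had 71.6, 30.2, 57.002 and 59.1. Ccnb1, cyclin B1, had 54.7, 32.4, 61.2 and 60.9 CPM. S phase genes did not share this low, since 15 of 21 were highest in replicate 2, against 21.3% of all tested genes, with medians of -0.18, 0.36, 0.15 and -0.31. Pcna, the replication clamp, had 49.5, 102, 92.3 and 74.9 CPM and Mcm6, a replicative helicase subunit, had 72.1, 119, 85.2 and 60.9. Replicate 2 thus had the lowest mitosis and the highest S phase medians of the 4 libraries. The S phase list took 0.0785, 0.112, 0.106 and 0.0798% of nuclear FPKM in 4n and 0.0600, 0.119, 0.0943 and 0.0770% in 2n replicates 1 to 4, so it was highest in replicate 2 of both groups. The genes most in excess in replicate 2 were Tnfrsf11b, osteoprotegerin, with 233, 676, 143 and 227 CPM, and Car3, Itga4, Sdc2, Lmo4 and Ptn, with gaps from 1.07 to 1.41 above the next library.

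Replicate 4 was set apart by endothelial and inflammatory genes. Over all tested genes 19.0% were highest in replicate 4. All 8 endothelial markers and all 11 inflammatory genes tested were, as were 11 of 16 immediate early genes. The immediate early list took 0.329, 0.222, 0.231 and 0.409% of nuclear FPKM in 4n and 0.261, 0.264, 0.254 and 0.370% in 2n. It was thus highest in replicate 4 of both groups. Cdh5, the endothelial cadherin, had 17.8, 24.8, 20.8 and 203 CPM, Kdr, the main VEGF receptor, had 6.75, 15.2, 31.6 and 83.3, and Cldn5, an endothelial tight junction protein, had 1.46, 0.946, 2.00 and 23.7. Cdh5 and Cldn5 were low in all other libraries, while Kdr also spread among them. Tek, the angiopoietin receptor, varied least, with an SD of 0.30. The endothelial list took 0.00409, 0.00267, 0.00292 and 0.00485% of nuclear FPKM in the 2n libraries, so the 2n library of the same number was not set apart to that extent.

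Among inflammatory genes, Ccl2, a monocyte chemokine, had 70.038, 164, 123 and 603 CPM, Cxcl1, a neutrophil chemokine, had 44.1, 69.9, 89.5 and 379.6, and Lcn2, lipocalin 2, had 11.1, 6.10, 3.76 and 91.8. The inflammatory list took 0.0735, 0.113, 0.0841 and 0.395% of nuclear FPKM in 4n and 0.0602, 0.139, 0.143 and 0.484% in 2n replicates 1 to 4. Here both libraries of replicate 4 were highest in their groups. C3, the central complement component, had 12.2, 10.9, 11.8 and 151 CPM, Cxcr4, a chemokine receptor, had 4.52, 4.04, 5.12 and 68.4, and Reg3b, an acute-phase lectin, had 2.42, 16.7, 19.4 and 148. Reg3b had the largest SD of all genes with a mean of at least 20 CPM, at 2.39, followed by Lcn2 at 2.01 and Cxcr4 at 1.94. Reg3b also lay far below the other libraries in replicate 1, by 2.71 on the log2 scale. The excess of replicate 4 over the next library was 3.70 for Cxcr4, 3.62 for C3, 3.03 for Cdh5 and 3.03 for Sparcl1, a matricellular protein. Of 7 interferon-stimulated genes tested, 6 were highest in replicate 4, with medians of -0.12, -0.09, -0.61 and 0.81. The interferon-stimulated list was highest in replicate 4 of the 2n libraries too, at 0.0130, 0.0139, 0.0135 and 0.0234% of nuclear FPKM.

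Replicate 1, with the lowest MT and muscle shares, also held the highest values of some stress and immediate early genes. Of 16 immediate early genes, 5 were highest in replicate 1 and 11 in replicate 4. In the unfolded protein and integrated stress list of 17 genes, 6 were highest in replicate 1 and 8 in replicate 2. Over all tested genes 29.7% were highest in replicate 1, so neither list was set apart there. Nr4a3, a nuclear receptor of the immediate early class, had 70.2, 10.5, 6.3957 and 19.6 CPM and Ddit4, an inhibitor of mTOR signalling induced by low oxygen and stress, had 104, 28.6, 29.0 and 40.3. Egr3 had 40.5, 16.2, 6.08 and 22.3 CPM. Of 17 genes of the unfolded protein and integrated stress list, 11 were lowest in replicate 4, against 23.3% of all tested genes. Among them Asns, asparagine synthetase, had 278, 256, 134 and 117 CPM and Chac1, a glutathione-degrading enzyme induced by ATF4, had 61.0, 39.6, 20.1 and 14.6. Genes most in deficit in replicate 1 included Hcn4, a pacemaker channel, with 7.51, 26.6, 88.2 and 26.6 CPM, Col4a4, a type IV collagen chain, with 42.2, 135, 405 and 160.2, and Cd36, a fatty acid transporter, with 8.98, 28.9, 111 and 72.2. Col4a4 thus ran with muscle genes, unlike the collagens of the matrix list.

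Nuclear genes followed Mt-nd5, the only MT gene used as a reference, less closely than they followed Actc1. The nearest to Mt-nd5, itself at 2451, 14504, 13924 and 13212 CPM, was Mef2c, a muscle transcription factor, with 7.45, 23.1, 33.5 and 24.4 CPM and a distance of 0.36. Pphln1 and Fam111a followed at 0.44 and 0.47. The nearest to Actc1 lay at 0.03 from it. No nuclear gene with a mean of at least 20 CPM matched Mt-nd5 to that degree. Distances between MT genes were of similar size, since Mt-co1 lay at 0.23 from Mt-nd5, Mt-nd1 at 0.44 and Mt-nd3 at 0.50. A distance of 0.36 thus does not set a nuclear gene apart from the MT genes.

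Other genes hardly varied. Ttc9c had 46.8, 45.9, 46.4 and 46.3 CPM and Csnk1g2, a casein kinase, had 119.9, 119.7, 118 and 118, with SDs of 0.01 and 0.01 on the log2 scale, below their counting errors of 0.06 and 0.04. Arpc2, an actin branching subunit, had 389, 401, 394 and 388 CPM and an SD of 0.02. Prkab2, Pcsk7, Qrich1, Papss1, Mlf2, Stk25 and Suco were the other members of the 10 most even genes. Cytosolic ribosomal protein genes were also even, with a median SD of 0.17 over 69 tested, below the 0.29 of all tested genes. Tpt1, translationally controlled tumour protein, was the steadiest of the 20 nuclear leaders, at 1344, 1476, 1302 and 1457 CPM and an SD of log2 CPM of 0.09.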

How the data were processed

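Total RNA of sorted cells was taken up with a micro kit and mRNA was isolated, per the labels' protocols. HISAT2 2.0.4 and the build Rnor_6.0 are named in the submitters' processing notes, while the organism label reads Rattus rattus. The sources used here do not give the counting tool or its use of strand, so reads of near-identical or antisense genes may be split or shared. The authors deposited 1 table of 30957 Ensembl genes in which each of the 8 libraries has a count column and an FPKM column. The deposited FPKM values equal count over the library's total count times a constant per gene, for 11164 genes checked, and the total includes MT genes. The deposited counts are the values as read from that table.

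Log2 CPM values were computed from the counts of nuclear genes with edgeR 4.0.16 in R 4.3.3, with TMM scaling, the filterByExpr filter over the 4n libraries (12057 genes kept) and a prior count of 2. Other steps used Python 3.11.15, numpy 2.4.6, pandas 2.3.3 and matplotlib 3.10.9. With 4 libraries and no contrast within the group, spread, library orders and profile distances are descriptions. Exact two-sided permutation tests, with Benjamini and Hochberg adjustment over 4 values, were used for the muscle balances only. No fit of 4n against 2n over all genes was made. Scripts were tested on simulated data.

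The gene lists and their members were chosen with earlier results of these data known. Genes were named by rank of mean FPKM (15 of all, 20 nuclear), as members of the chamber lists, by largest and smallest SD, by distance to Actc1, its mirror image or Mt-nd5, by gap to the next library, and as up to 4 members of each list with the largest SD. Acta1, Adm, Ankrd1, Asph, Atp2a2, Atp5b, Ccnb1, Cox4i1, Ctgf, Cyr61, Des, Jph2, Ldha, Loxl2, Lyz2, Mcm6, Mmp2, Nos3, Pcna, Pdgfrb, Plk1, Plod2, Ptprc, Ryr2, Tek, Upk3b, Vegfa and Wt1 fall outside that rule and were chosen after their values were seen, as were genes named for being listed at 0. For Pkm, listed at a pair of loci, the RGD-named entry was used. Of the list symbols, Ttn, Pecam1, Nebl, Hba-a2, Egln1, Ero1a, Ier2, Nos2, Ccnb2 and Cox7a1 were not analysed here, and some list members are not reported here.

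Same-numbered 2n and 4n libraries share a code in the labels. Their deviations from the group means correlated at 0.48, 0.64, 0.30 and 0.65 for replicates 1 to 4 over 11843 genes, and each was highest between libraries of 1 number, which were therefore taken as pairs. The labels call the replicates independent experiments.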

Additional observations from a re-analysis of the deposited data

Results flagged for a closer look

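Within the 4n libraries, 12 of 83 groups of 4 values had 1 library farther from the rest than Dixon's 95% critical value for 4 values allows, where chance gives about 1 in 20. Many of these values move together, and the gene lists were chosen with earlier results known. The 12 are therefore not separate events, and their number is not a test against chance.

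Replicate 1 was low in mitochondrial transcripts, with 3.71% of counts and 8.44% of FPKM on MT. Its FPKM was 9270.1 for Mt-co1, 6544 for Mt-cox3, 4470.2 for Mt-co2 and 1257 for Mt-nd5, against at least 60506, 42069.7, 30628 and 5588 in the other 3 libraries. Eef2, a translation elongation factor, was high there at 1899 FPKM against 1029.9 to 1171, on a scale that lowers nuclear genes in the other 3.

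Replicate 2 was low in the glycolysis list, at 0.713% of nuclear FPKM against 1.73% to 1.91%, and in the mitosis list, at 0.0717% against 0.124% in each of the others.

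Replicate 4 was high in the endothelial list, at 0.0274% of nuclear FPKM against at most 0.00610%. It was also high in the inflammatory list, at 0.395% against at most 0.113%, and in the glial list, at 0.00147% against at most 0.000470%.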

How the results depend on the processing

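Of 93 alternative values, 8 turned in direction, each of them a balance difference, because the other values cannot be negative. Among those other values, 25 were counted as moved. For median SDs and percents of variance, a change in the third digit was enough for that. No balance value passed the adjusted threshold under an alternative, but 1 value alone could not have passed it, so this says nothing of stability. The atrial share difference became 25.0 percentage points with all members of both chamber lists and 0.362 with Myl7 and Myl2 only. It was -4.75 with all members but Nppa and -4.16 with Myl4 and Myl3 only. All of these alternatives except the first were added after the data were seen. Leaving out 1 library in turn moved the Tnni3 share difference between -2.45 and 0.270 points, turning it without 2n replicate 4. The same moved the Myh6 share difference between -1.12 and 1.62 points, turning it at -1.12, -0.316, -0.534, -0.418 and -0.0728. The Nppa over Actc1 difference lay between 0.11 and 0.44 on the log2 scale. With the replicate block the differences are the same by construction, at -3.33, -1.13, 0.148 and 0.28 (log2 for Nppa over Actc1), and the exact sign-flip permutation of 4 pairs cannot go below p = 0.125, so no call could change.

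The 10 leading genes took 32.4% of FPKM with MT genes counted and 10.2% by counts. Without a filter on low counts, 1551 genes had an SD above 1, the median SD was 0.36 and the first component held 42.7%, over more genes. The median SD was 0.29 with RLE factors, 0.29 with total counts, 0.29 with MT genes and 0.29 with a prior count of 0.5. The first component held 53.3%, 53.3%, 53.4% and 52.9% in the same settings. Leaving out 1 library gave a median SD of 0.26 to 0.29, a first component of 54.2% to 72.5% and 2397 to 2874 genes in the order of Actc1, with fewer libraries to order. Depth limits Sln, Myl7, macrophage and glial genes, which rest on few counts. The cause of the other changes was not tested.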
